A study of Mus musculus with 24 samples.

Results

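The genes described here are those whose mRNA level in hepatocytes lacking both IkkB and Shp2 departed from what the single deletions add up to. For each gene the interaction was taken as log2(Double KO + 1) minus log2(IkkB KO + 1) minus log2(Shp2 KO + 1) plus log2(WT + 1), so that 0 means that the changes of the single knockouts multiply in the Double KO. Genes with an interaction of at least 1 or at most -1 were kept, which puts the Double KO (level plus 1) at least 2 times above or below the multiplied changes. Of 24319 genes in the hepatocyte table, 10980 reached a level of 1 in any genotype and were not marked as too deep to estimate, and 601 of these were past the threshold. Of the 10980, 230 genes (2.09%) had an interaction of at least 1 and 371 genes (3.38%) had an interaction of at most -1.

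The mice were males of 2 months on the C57/BL6 background, in 4 genotypes with 3 biological replicates each. Double KO mice carried Alb-Cre with floxed IkkB and floxed Shp2 alleles (Alb-Cre+;IkkBf/f;Shp2f/f), IkkB KO mice Alb-Cre with floxed IkkB (Alb-Cre+;IkkBf/f), Shp2 KO mice Alb-Cre with floxed Shp2 (Alb-Cre+;Shp2f/f), and the controls were WT mice. The Alb promoter drives Cre in hepatocytes, so that the deletions are aimed at these cells, and no Cre or floxed allele is stated for the WT controls. PolyA RNA was sequenced from isolated hepatocytes, and from whole liver of the same genotypes, which is used here only as a second set of samples. The files give 1 level per gene and genotype, made by Cuffdiff from the replicates together and in FPKM (fragments scaled by transcript length and library size) by the convention of that program. No level per animal, SD or read depth is given, so the interaction has no error and no test. The only measure of replicate error is the q-value of each pair of genotypes in the authors' deposited table.

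IkkB (IKK-beta, gene Ikbkb) is the kinase that releases NF-kB to the nucleus after inflammatory signals. Shp2 (gene Ptpn11) is a phosphatase that carries growth factor and cytokine signals to Ras and Erk and dampens Stat signalling. In the liver these pathways meet in the acute phase response, in regeneration and in the response to growth hormone, which sets the sex-biased programme of hepatocytes.

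The deleted genes followed the labels. Ikbkb had 5.29 FPKM in Double KO and 7.16 FPKM in IkkB KO hepatocytes, against 15.1 FPKM in Shp2 KO and 17.3 FPKM in WT hepatocytes. Ptpn11 had 5.77 FPKM in Double KO and 4.46 FPKM in Shp2 KO hepatocytes, against 14.5 FPKM in IkkB KO and 16.3 FPKM in WT hepatocytes. Each was low in the genotypes that lack it, and their interactions were -0.19 for Ikbkb and 0.46 for Ptpn11. Xist, the female X-inactivation RNA, was at or under 0.0065 FPKM in all 4 genotypes, and Ddx3y, a Y-linked helicase, lay between 10.6 and 13.9 FPKM.

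A large share of the extreme values came from short RNA genes, meaning microRNA, small nucleolar, small nuclear and guide RNA genes by their RefSeq biotype. Of 255 such genes that passed the filter, 179 (70.2%) were past the threshold, against 403 of 10408 protein-coding genes (3.87%). They made up 12 of the 12 largest and 11 of the 12 smallest interactions among genes that reached 5 FPKM. Their median length was 87 bases, 143 of the 179 were listed at 0 in at least 1 genotype, and 0 of the 179 had a q-value under 0.05 in any pair of the authors' deposited table. Mir7664 is an example, listed at 0 in Double KO, 406 FPKM in IkkB KO, 284 FPKM in Shp2 KO and 0 in WT hepatocytes. These rows are set aside from here on, which leaves 422 of 10725 genes: 158 at 1 or more (1.47%) and 264 at -1 or less (2.46%). At the edge of the threshold, Rec8 (1.001) lay just inside and Mical2 (0.999) just outside, and Tob2 (-1.002) lay just inside and Efemp2 (-0.999) just outside.

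**Figure D1:**
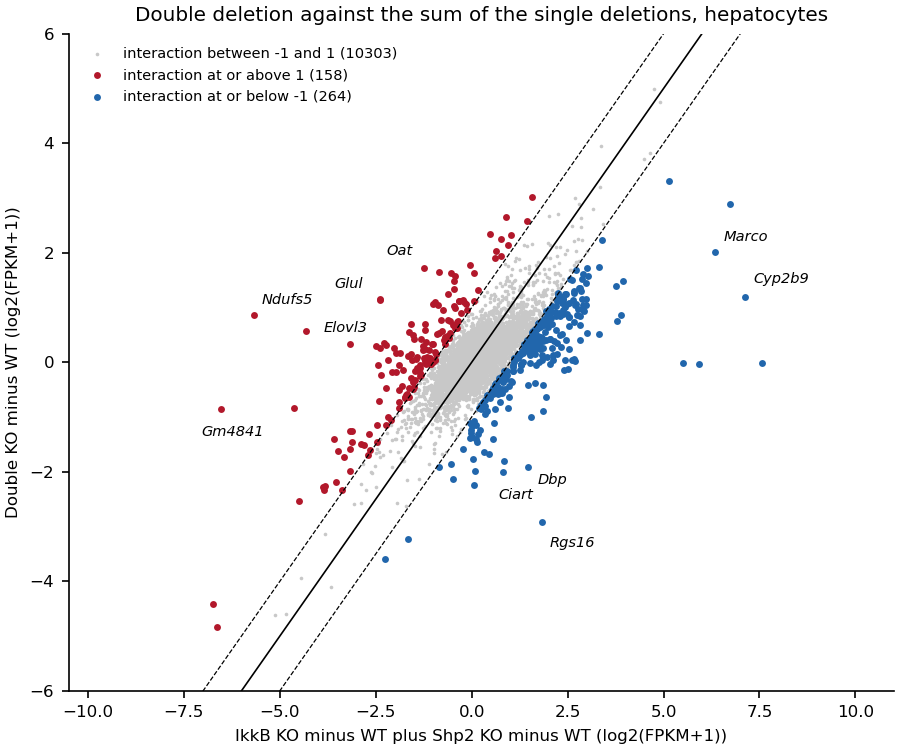
Double KO minus WT (vertical axis) against the sum of IkkB KO minus WT and Shp2 KO minus WT (horizontal axis), both as differences of log2(FPKM + 1), for 10725 genes of isolated hepatocytes without short RNA genes; each point is a gene, the solid line is additivity and the dashed lines are an interaction of 1 and -1. The 158 red genes lie above the upper dashed line and the 264 blue genes below the lower. Many of both colours lie near 0 on the vertical axis, where the threshold itself requires singles that add up to a change.

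The 4 genotypes split the genes by what moved. Relative to WT, a level was counted as higher or lower at a difference of 0.5 on the log2(FPKM + 1) scale and as between otherwise. At that limit, the most common form of a positive interaction was a gene that was lower in both single knockouts and close to WT in the Double KO, with 34 of 158 genes (21.5%). In 29 further genes both single knockouts and the Double KO were lower, the Double KO by less than the sum. In 11 genes neither single knockout passed 0.5 and the Double KO was higher. Among negative interactions, 77 of 264 genes (29.2%) were higher than WT in all 3 knockouts, with the Double KO short of the sum. In 39 genes Shp2 KO alone was higher and in 36 genes IkkB KO alone was higher, with the Double KO close to WT, and in 29 genes neither single knockout passed 0.5 and the Double KO was lower. The order of the patterns rested on that limit. At a limit of 1, 57 of the positive and 64 of the negative genes were within it in all 3 knockouts, 7 positive genes were lower in both single knockouts with the Double KO between, and 23 negative genes were higher in all 3 knockouts. The leading patterns with a change at a limit of 1 were lower in Shp2 KO alone for positive genes, with 21, and higher in IkkB KO alone for negative genes, with 61, ahead of 55 that were higher in Shp2 KO alone.

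**Figure D2:**
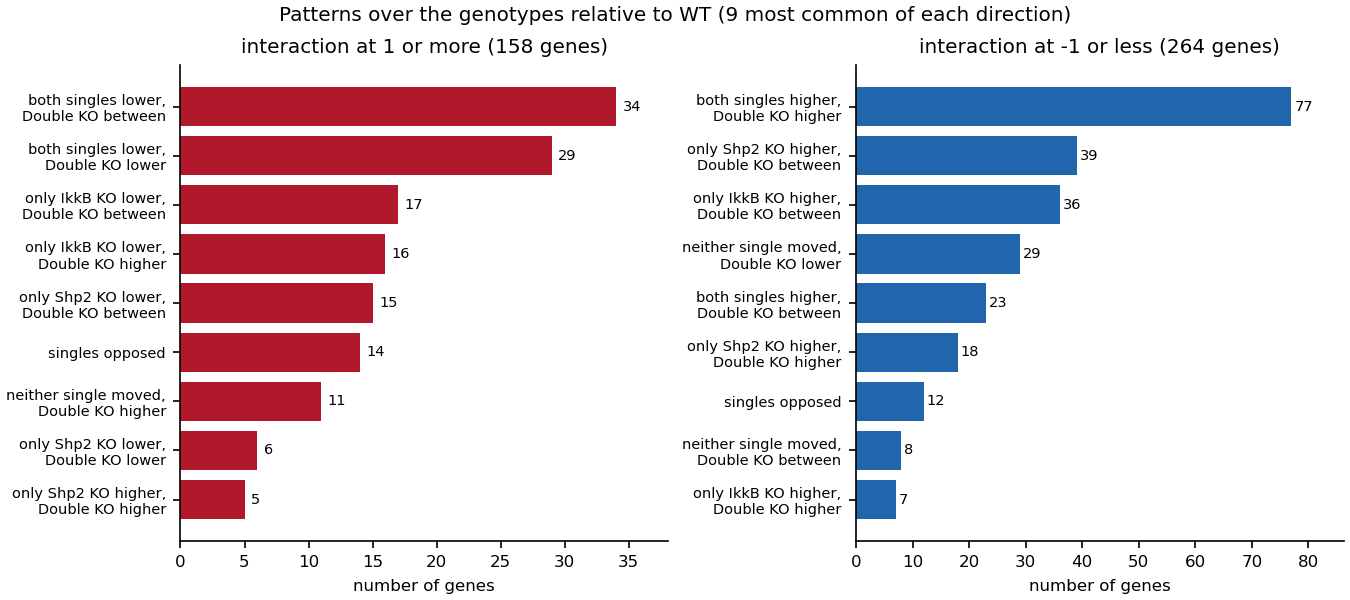
Number of genes (horizontal axis) in each of the 9 most common patterns of positive (left) and negative (right) interactions; higher, lower and between are differences from WT of at least 0.5, at most -0.5 and in between on the log2(FPKM + 1) scale. The longest bar on the left is 34 genes lower in both singles with the Double KO near WT, and on the right 77 genes higher in all 3 knockouts; at a limit of 1 these were 7 and 23 genes and no longer led.

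The Double KO was within 0.5 of WT in 66 of the 158 positive genes (41.8%) and in 107 of the 264 negative genes (40.5%), against 85% of all genes tested. The WT level enters every one of the 3 differences, so a WT level that is low by itself gives a gene that is higher in all 3 knockouts and has a negative interaction. By the authors' deposited table, the Double KO was higher than both single knockouts at q under 0.05 in 59 of 156 tested positive genes and lower than both in 62 of 250 tested negative genes. Over all genes tested these shares were 1.39% and 1.18%. In single pairs the share of all genes with such a q-value was 13.1% for Double KO, 8.2% for IkkB KO and 11.8% for Shp2 KO against WT, 11.8% for Double KO against IkkB KO and 6.81% for Double KO against Shp2 KO. The same levels chose the members, so these counts describe them and support nothing further.

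Several clock genes, among them Dbp, Ciart, Per2, Per3 and Tef, were lower than WT in the Double KO and not in either single knockout, and Arntl and Nfil3 were lower in both single knockouts and not in the Double KO. The circadian clock is a feedback loop in which Arntl (Bmal1) and Clock drive the Per and Cry repressors and the output factors Dbp, Tef and Hlf through E-boxes, while Nfil3 acts against Dbp and its relatives at D-boxes. Of 18 clock genes measured, 6 had an interaction of at most -1 and 2 of at least 1, with a median of -0.74 against 0.015 over all genes. Over all 10725 genes, 2.46% were at -1 or less and 1.47% at 1 or more. These are the shares to set beside this and each later list count in hepatocytes. The genes at -1 or less were Dbp, Ciart, Per3, Per2, Tef and Per1, and those at 1 or more were Arntl and Nfil3. The hour at which livers were taken is not given in the labels.

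The promoters of Ciart, Per1, Tef and Per3 are printed here because each holds a match to the E-box or the D-box, the motifs of the clock loop described above, and they were picked for holding one. The E-box was searched as CACGTG and the D-box as TTATGTAA, on both strands, from 250 bases before to 50 after the RefSeq start in GRCm38.p6, a later build than the mm9 used by the submitters, with genes matched by symbol. Capitals mark the motif in each line.
Ciart (chr3:95882179-95882478, minus strand): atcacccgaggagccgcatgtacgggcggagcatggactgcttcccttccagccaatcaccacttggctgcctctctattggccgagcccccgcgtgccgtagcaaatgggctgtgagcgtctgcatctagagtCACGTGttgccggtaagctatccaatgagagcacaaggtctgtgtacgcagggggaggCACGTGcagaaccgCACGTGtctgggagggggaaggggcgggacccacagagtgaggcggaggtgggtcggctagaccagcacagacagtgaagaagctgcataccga
Per1 (chr11:69098699-69098998, plus strand): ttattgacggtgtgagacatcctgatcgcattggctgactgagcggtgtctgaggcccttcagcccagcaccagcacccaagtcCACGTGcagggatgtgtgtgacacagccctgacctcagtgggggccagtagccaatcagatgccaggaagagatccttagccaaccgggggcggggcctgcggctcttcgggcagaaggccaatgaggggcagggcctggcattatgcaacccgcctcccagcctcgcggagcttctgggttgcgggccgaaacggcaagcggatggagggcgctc
Tef (chr15:81802423-81802722, plus strand): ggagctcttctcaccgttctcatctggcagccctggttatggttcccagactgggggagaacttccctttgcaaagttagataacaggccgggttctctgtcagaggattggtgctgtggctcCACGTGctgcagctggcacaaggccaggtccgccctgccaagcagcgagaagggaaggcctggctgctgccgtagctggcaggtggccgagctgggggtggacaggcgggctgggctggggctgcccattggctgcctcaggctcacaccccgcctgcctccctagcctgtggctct
Per3 (chr4:151044616-151044915, minus strand): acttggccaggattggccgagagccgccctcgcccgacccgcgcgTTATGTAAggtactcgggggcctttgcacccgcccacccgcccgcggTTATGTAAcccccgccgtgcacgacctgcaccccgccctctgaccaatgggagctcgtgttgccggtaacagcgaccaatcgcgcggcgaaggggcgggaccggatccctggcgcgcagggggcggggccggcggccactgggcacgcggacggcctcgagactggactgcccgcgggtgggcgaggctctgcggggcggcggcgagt
Ciart held 3 E-boxes and Per3 held 2 D-boxes. Per1 and Tef each have 2 RefSeq promoters, of which 1 is shown. The E-box was present in 3 of the 5 negative clock genes with a RefSeq promoter. It was present in 5 of 22 genes that were lower in the Double KO alone (22.7%). The share was 11.2% of 187 negative genes, 9.6% of 125 positive genes and 8.09% of all 27025 genes with a promoter. Here and below, the set of all genes was not limited to those that passed the filter in hepatocytes, as the members were. The D-box was present in 2.67% of the negative genes, 0.8% of the positive genes and 1.11% of all genes with a promoter. A Stat site, TTCNNNGAA, was present in 11.8% of the negative genes, 4.8% of the positive genes and 9.55% of all genes with a promoter. Of the kB sites of NF-kB, 2 forms were searched by name. A match was found in 1 of the 125 positive genes and 0 of the 187 negative genes. Over all genes with a promoter the shares of the 2 forms were 0.174% and 0.107%, too low to be read in sets of this size.

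Dbp, the D-box activator that is a direct output of the clock, had 12.5 FPKM in Double KO, 86.5 FPKM in IkkB KO, 82.2 FPKM in Shp2 KO and 50.2 FPKM in WT hepatocytes, an interaction of -3.39. Ciart, a repressor of Clock and Arntl, had 1.08 FPKM in Double KO, 10.2 FPKM in IkkB KO, 9.80 FPKM in Shp2 KO and 7.32 FPKM in WT hepatocytes, an interaction of -2.80. In both, the single knockouts stood above WT and the Double KO far below it. The authors' deposited table called no rise of a single knockout against WT. The q-values were 0.581 (IkkB KO) and 0.579 (Shp2 KO) for Dbp, and 0.542 and 0.494 for Ciart. For Ciart both rises were also under the limit of 0.5 (0.43 in IkkB KO and 0.38 in Shp2 KO). Per3, a repressor of the same loop, had 0.834 FPKM in Double KO, 5.46 FPKM in IkkB KO, 6.38 FPKM in Shp2 KO and 4.89 FPKM in WT hepatocytes. Per2 had 1.0002 FPKM in Double KO, 7.22 FPKM in IkkB KO, 4.76 FPKM in Shp2 KO and 5.78 FPKM in WT hepatocytes. By the authors' deposited table, Per2, Per3 and Tef fell in the Double KO against each of the other genotypes (q = 0.00048 in every pair), and Dbp fell against IkkB KO (q = 0.0301) and Shp2 KO (q = 0.0319) but not against WT (q = 0.233).

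Tef, a relative of Dbp, had 18.9 FPKM in Double KO, 49.1 FPKM in IkkB KO, 53.7 FPKM in Shp2 KO and 41.9 FPKM in WT hepatocytes, an interaction of -1.68. Per1 had 4.81 FPKM in Double KO, 9.45 FPKM in IkkB KO, 10.6 FPKM in Shp2 KO and 6.84 FPKM in WT hepatocytes, an interaction of -1.42. The order of the genotypes was turned round in the activator Arntl and the repressor Nfil3. Arntl had 6.44 FPKM in Double KO, 1.74 FPKM in IkkB KO, 1.51 FPKM in Shp2 KO and 4.81 FPKM in WT hepatocytes, and Nfil3 had 26.5 FPKM in Double KO, 8.09 FPKM in IkkB KO, 10.05 FPKM in Shp2 KO and 21.96 FPKM in WT hepatocytes. Both had an interaction of 2.65, fell in each single knockout against WT by the authors' deposited table (q of 0.0023 or less) and had no such call in the Double KO (q = 0.253 for Arntl and 0.461 for Nfil3). The other 10 clock genes lay between -1 and 1. Nr1d1 (Rev-erb alpha), the repressor of Arntl, was level over the genotypes, with 39.2 FPKM in Double KO, 37.4 FPKM in IkkB KO, 36.0 FPKM in Shp2 KO and 39.1 FPKM in WT hepatocytes. With a pseudocount of 5 in place of 1 the interactions of Per2 (-0.88) and Per1 (-0.96) were inside the threshold.

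Of 20 rhythmic liver genes downstream of the clock, 8 had an interaction of at most -1 and 5 of at least 1, with a median of -0.80. Rgs16, a brake on G protein signalling, had 0.967 FPKM in Double KO, 141 FPKM in IkkB KO, 4.54 FPKM in Shp2 KO and 13.8 FPKM in WT hepatocytes, an interaction of -4.75. Every pair deposited for Rgs16 had q = 0.00048 in the authors' deposited table. Usp2, a deubiquitinase driven by the clock, had 4.63 FPKM in Double KO, 13.5 FPKM in IkkB KO, 24.6 FPKM in Shp2 KO and 10.3 FPKM in WT hepatocytes (-2.55). Ccrn4l (nocturnin) had 6.85 FPKM in Double KO, 20.9 FPKM in IkkB KO, 25.4 FPKM in Shp2 KO and 11.3 FPKM in WT hepatocytes (-2.59). These resemble Dbp, with both single knockouts at or above WT and the Double KO lowest, except that in Rgs16 only IkkB KO was above WT. Elovl3, a fatty acid elongase, went the way of Arntl, with 175 FPKM in Double KO, 57.7 FPKM in IkkB KO, 36.1 FPKM in Shp2 KO and 139 FPKM in WT hepatocytes (3.50). Thrsp, a lipogenic gene outside that list, was lower in the Double KO alone, with 201 FPKM in Double KO, 934 FPKM in IkkB KO, 715 FPKM in Shp2 KO and 797 FPKM in WT hepatocytes (-2.05).

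**Figure D3:**
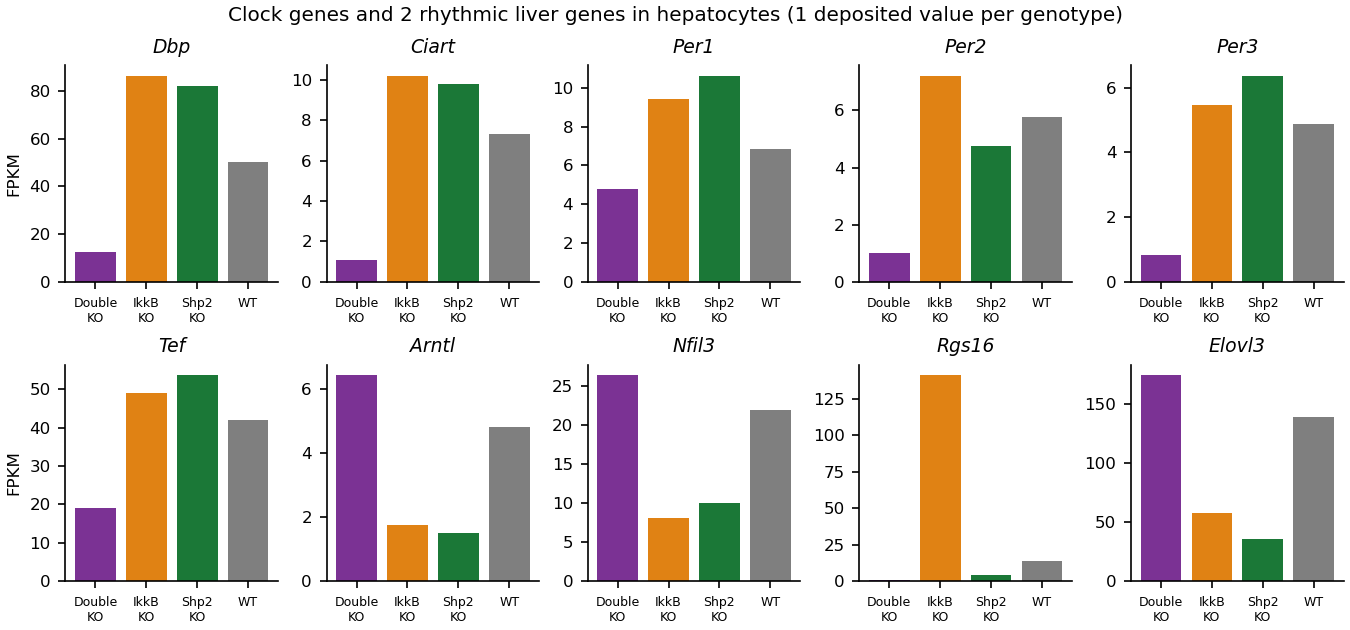
Deposited FPKM (vertical axis, linear from 0, scale set per gene) of 8 clock genes and the rhythmic genes Rgs16 and Elovl3 in Double KO, IkkB KO, Shp2 KO and WT hepatocytes; each bar is the 1 level per genotype and there is no error bar. The Double KO bar is the lowest for Dbp, Ciart, Per1, Per2, Per3, Tef and Rgs16 and the highest for Arntl, Nfil3 and Elovl3.

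Genes that are female-biased in liver were high mainly in Shp2 KO and had negative interactions. In male mice these genes are normally silent in hepatocytes, under the pulsed pattern of growth hormone. Of 18 measured, 10 had an interaction of at most -1 and 0 of at least 1, with a median of -1.85. Sult2a1, a sulfotransferase of bile acids and steroids, had 0.0745 FPKM in Double KO, 0.116 FPKM in IkkB KO, 47.6 FPKM in Shp2 KO and 0.0888 FPKM in WT hepatocytes (-5.54). Cux2, a factor that activates female-biased genes, was likewise high in Shp2 KO alone, with 0.0705 FPKM in Double KO, 0.279 FPKM in IkkB KO, 4.78 FPKM in Shp2 KO and 0.434 FPKM in WT hepatocytes (-2.27). Cyp2b9 and Cyp2a4, female-biased cytochromes, were highest in Shp2 KO and above WT in the other knockouts. Cyp2b9 had 1.67 FPKM in Double KO, 2.47 FPKM in IkkB KO, 53.9 FPKM in Shp2 KO and 0.165 FPKM in WT hepatocytes (-5.93), and Cyp2a4 had 15.7 FPKM in Double KO, 12.2 FPKM in IkkB KO, 39.3 FPKM in Shp2 KO and 1.24 FPKM in WT hepatocytes (-3.82).

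By the authors' deposited table, Cyp2b9 rose in Shp2 KO against WT and was lower in the Double KO than in Shp2 KO (q = 0.00048 each). Sult2a2, at 65.9 FPKM in Shp2 KO and under 0.08 FPKM in the other genotypes, had no such call (q = 0.107 for Shp2 KO against WT), and how the 3 Shp2 KO libraries share that level is not visible in the files. In whole liver Cyp2b9 was not high in Shp2 KO. Cyp2b9 had 1.84 FPKM in Double KO, 2.20 FPKM in IkkB KO, 0.0429 FPKM in Shp2 KO and 0.0402 FPKM in WT livers. Levels of near-identical genes of the Sult2a, Cyp2a and Cyp4a families are uncertain, because a read may fit several of them.

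Genes that are male-biased in liver had a median interaction of the other sign (0.94), with 7 of 17 at 1 or more and 1 at -1 or less. They did not return to WT in the Double KO as a list. Their median difference from WT was -1.61 in Double KO, -0.73 in IkkB KO and -1.91 in Shp2 KO. Of the 23 listed genes, 6 were left out as too deep to estimate. Hsd3b5, a steroid dehydrogenase, had 6.02 FPKM in Double KO, 88.1 FPKM in IkkB KO, 1.40 FPKM in Shp2 KO and 150 FPKM in WT hepatocytes (2.31). Selenbp2, a selenium-binding protein, had 133 FPKM in Double KO, 423 FPKM in IkkB KO, 61.6 FPKM in Shp2 KO and 774 FPKM in WT hepatocytes (1.97). Both fell in all 3 knockouts against WT by the authors' deposited table, and the Double KO stood above Shp2 KO and below IkkB KO. Complement C6 had 119 FPKM in Double KO, 62.8 FPKM in IkkB KO, 45.2 FPKM in Shp2 KO and 106 FPKM in WT hepatocytes (2.13), so that only the single knockouts were low. Ugt2b38, a glucuronosyltransferase, was the male-biased gene at -1 or less, with 0.108 FPKM in Double KO, 13.5 FPKM in IkkB KO, 0.957 FPKM in Shp2 KO and 4.23 FPKM in WT hepatocytes (-2.30).

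Socs2 and Cish, feedback inhibitors induced by growth hormone through Stat5, and Onecut1 (Hnf6), a hepatocyte factor that responds to growth hormone, had positive interactions. Socs2 had 16.7 FPKM in Double KO, 9.30 FPKM in IkkB KO, 4.73 FPKM in Shp2 KO and 7.91 FPKM in WT hepatocytes (1.42). Socs2 rose in the Double KO (q = 0.00048) and fell in Shp2 KO (q = 0.0216), each against WT, by the authors' deposited table. Cish had 17.1 FPKM in Double KO, 20.8 FPKM in IkkB KO, 12.2 FPKM in Shp2 KO and 38.7 FPKM in WT hepatocytes (1.32), and Onecut1 had 9.30 FPKM in Double KO, 13.03 FPKM in IkkB KO, 5.40 FPKM in Shp2 KO and 30.7 FPKM in WT hepatocytes (1.86). Both fell in every knockout against WT by the authors' deposited table, with Shp2 KO lowest, and the Double KO was not lower than Shp2 KO.

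**Figure D4:**
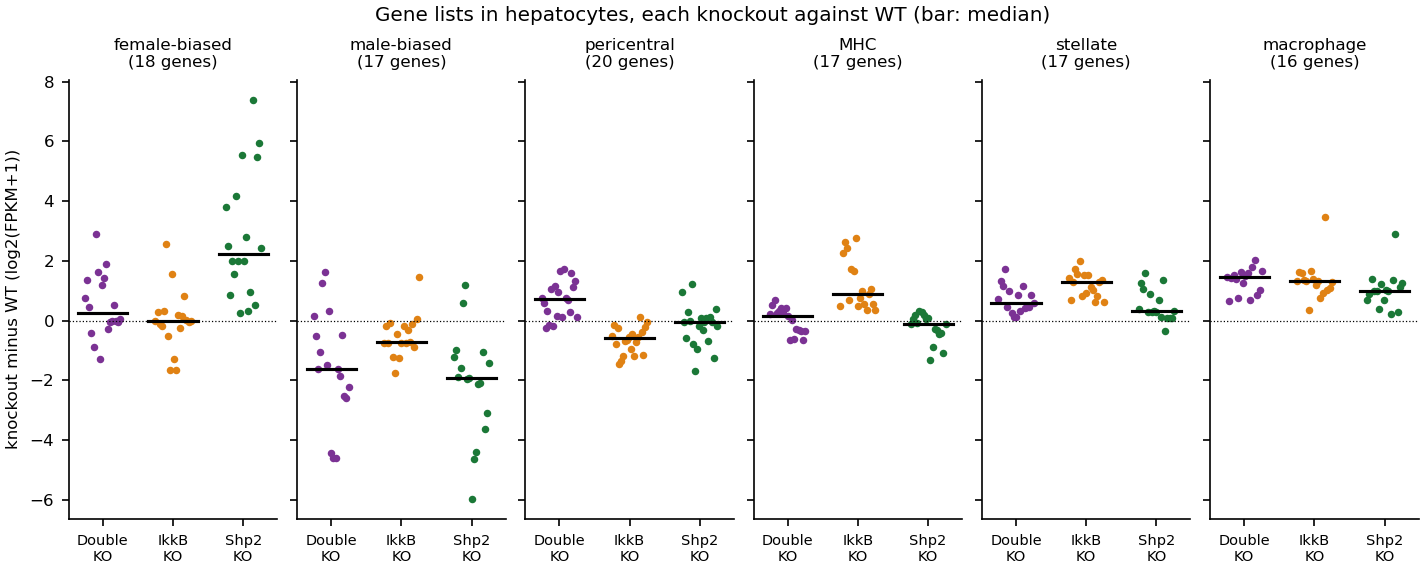
Each knockout minus WT as a difference of log2(FPKM + 1) (vertical axis) for every measured gene of 6 lists in hepatocytes, in the order Double KO, IkkB KO and Shp2 KO; points are genes and the bar is their median. Female-biased genes stand high in Shp2 KO (median 2.22) and near WT in the Double KO (0.25). The male-biased medians are below WT in Double KO (-1.61), IkkB KO (-0.73) and Shp2 KO (-1.91). Pericentral genes, a list drawn up after the values were seen, are above WT in the Double KO (0.73). MHC and stellate genes are highest in IkkB KO (0.90 and 1.31).

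Many genes of pericentral hepatocytes, the cells around the central vein that make glutamine and are set by Wnt signals, had positive interactions. Slc1a2 and Glul had the largest values after Ndufs5, Gm4841, Rpl29 and Scara5. The pericentral list was drawn up after the values were seen. Of 20 measured, 14 had an interaction of at least 1 and 0 of at most -1, with a median of 1.36. Inside the threshold were Notum (0.87), Axin2 (0.79), Znrf3 (0.34), Aldh1a1 (0.32), Cyp27a1 (0.26) and Rnf43 (0.07). Glul, glutamine synthetase, had 246 FPKM in Double KO, 68.3 FPKM in IkkB KO, 33.1 FPKM in Shp2 KO and 110 FPKM in WT hepatocytes (3.54). Slc1a2, a glutamate transporter of the same cells, had 24.0 FPKM in Double KO, 4.06 FPKM in IkkB KO, 3.803 FPKM in Shp2 KO and 10.3 FPKM in WT hepatocytes (3.54). Both were below WT in each single knockout and above WT in the Double KO. By the authors' deposited table, Glul rose in the Double KO against WT (q = 0.00294) and fell in Shp2 KO (q = 0.00048), with no call in IkkB KO (q = 0.055).

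Oat, ornithine aminotransferase, had 660 FPKM in Double KO, 87.0 FPKM in IkkB KO, 194 FPKM in Shp2 KO and 199.9 FPKM in WT hepatocytes (2.95). Lhpp, a phosphatase, had 56.5 FPKM in Double KO, 8.54 FPKM in IkkB KO, 18.7 FPKM in Shp2 KO and 17.4 FPKM in WT hepatocytes (2.49). Here Shp2 KO matched WT, IkkB KO was below it and the Double KO was about 3 times as high. Cyp2e1, an ethanol-oxidising cytochrome, had 2069 FPKM in Double KO, 1026 FPKM in IkkB KO, 1366 FPKM in Shp2 KO and 2339.5 FPKM in WT hepatocytes (1.79). By the authors' deposited table it fell in IkkB KO against WT (q = 0.0234). The Double KO had no call against IkkB KO (q = 0.0595) or Shp2 KO (q = 0.346). The transporter Rhbg (1.93) and the transcription factor Tbx3 (1.16) were past the threshold with a pseudocount of 1 and not with 5. Of 11 periportal genes, the opposite zone, 0 were at 1 or more and 1 was at -1 or less, which was Sds, serine dehydratase (-1.47). In whole liver the pericentral genes had a median interaction of -0.40, with 0 of 20 at 1 or more and 2 at -1 or less, and Glul lay between 405 and 555 FPKM in all 4 genotypes. Bulk levels do not separate fewer cells of a type from less RNA per cell.

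Among other genes that were low in both single knockouts and at WT in the Double KO was Cdkn1a (p21), a cell cycle inhibitor induced by p53. It had 14.3 FPKM in Double KO, 2.73 FPKM in IkkB KO, 6.38 FPKM in Shp2 KO and 11.5 FPKM in WT hepatocytes (2.80). Gdf15, a stress hormone, had 10.9 FPKM in Double KO, 3.64 FPKM in IkkB KO, 5.51 FPKM in Shp2 KO and 9.53 FPKM in WT hepatocytes (2.05). Cdkn1a and Gdf15 were the 2 of 16 p53 targets past the threshold. Derl3, an endoplasmic reticulum degradation factor, had 6.25 FPKM in Double KO, 2.30 FPKM in IkkB KO, 2.10 FPKM in Shp2 KO and 6.47 FPKM in WT hepatocytes (2.41), and Sdf2l1, a chaperone partner there, had an interaction of 1.33. Atf3, of the same list of 19 stress response genes, was at -1.04 and at -0.39 with a pseudocount of 5. Pttg1 (securin), a regulator of sister chromatid separation, was low in Shp2 KO alone, with 42.5 FPKM in Double KO, 44.0 FPKM in IkkB KO, 4.81 FPKM in Shp2 KO and 34.1 FPKM in WT hepatocytes (2.55). Camk2b, a calcium-dependent kinase, had 4.30 FPKM in Double KO, 5.13 FPKM in IkkB KO, 0.396 FPKM in Shp2 KO and 4.99 FPKM in WT hepatocytes (1.89). In both, the fall in Shp2 KO was called by the authors' deposited table and the Double KO had no call against WT, and with a pseudocount of 5 the interaction of Camk2b was 0.77.

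The largest positive value, that of Ndufs5 (6.53), had no call in any pair of the authors' deposited table. Ndufs5, a subunit of respiratory complex I, had 12.7 FPKM in Double KO, 0.0787 FPKM in IkkB KO, 0.0380 FPKM in Shp2 KO and 6.56 FPKM in WT hepatocytes. Reads of Ndufs5 and of Rpl29 (4.88), a ribosomal protein gene, can fall on near-identical copies. Gm4841 had 9.81 FPKM in Double KO, 0.961 FPKM in IkkB KO, 1.08 FPKM in Shp2 KO and 18.5 FPKM in WT hepatocytes (5.69). Scara5, a receptor for ferritin, had 4.83 FPKM in Double KO, 1.57 FPKM in IkkB KO, 0.701 FPKM in Shp2 KO and 9.44 FPKM in WT hepatocytes (3.797). Gm4841 and Scara5 fell in all 3 knockouts against WT in the authors' deposited table, and the Double KO was above each single knockout (q = 0.00048).

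The mirror pattern, high in both single knockouts and at WT in the Double KO, was held by 23 genes. Eif4e3, a cap-binding protein, had 2.84 FPKM in Double KO, 8.69 FPKM in IkkB KO, 8.57 FPKM in Shp2 KO and 2.79 FPKM in WT hepatocytes (-2.67). The growth factor carrier Igfbp3 (-2.65) and the phosphate transporter Slc20a1 (-2.59) had the same order, and all 3 genes rose in each single knockout against WT by the authors' deposited table (q = 0.00048).

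The direct target lists of both pathways held 4 and 2 members. Of 19 NF-kB targets, 1 was at 1 or more and 3 at -1 or less, with a median of -0.24. Cxcl1, a neutrophil chemokine, had 5.93 FPKM in Double KO, 3.90 FPKM in IkkB KO, 14.8 FPKM in Shp2 KO and 32.2 FPKM in WT hepatocytes (1.57), lower than WT in every knockout. Vcam1 (-1.45), Ccl2 (-1.32) and Tnfaip3 (-1.16) were the negative genes, all of low level, and with a pseudocount of 5 they were at -0.67, -0.44 and -0.40, inside the threshold. Of 12 Ras-Erk feedback targets, 2 were at 1 or more and 0 at -1 or less, Egr1 and Phlda1, with a median of -0.10. Egr1, an immediate early factor, had 5.497 FPKM in Double KO, 5.39 FPKM in IkkB KO, 1.80 FPKM in Shp2 KO and 5.95 FPKM in WT hepatocytes (1.33), low in Shp2 KO alone. Egr1 fell in Shp2 KO against WT (q = 0.00048) with no call in the Double KO (q = 0.824), by the authors' deposited table. Its interaction was 0.70 with a pseudocount of 5.

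Of 28 acute phase genes, 3 were at 1 or more and 2 at -1 or less, with a median of -0.34. Saa1, the serum amyloid protein, had 397 FPKM in Double KO, 127 FPKM in IkkB KO, 3003 FPKM in Shp2 KO and 1999 FPKM in WT hepatocytes (1.05), and Saa2 had the same order (1.59). Orm3 had 4.93 FPKM in Double KO, 1.57 FPKM in IkkB KO, 51.0 FPKM in Shp2 KO and 4.38 FPKM in WT hepatocytes (-2.07), and Hamp (hepcidin) was the other negative gene (-1.19). Mt1, a metallothionein, had 46.6 FPKM in Double KO, 55.3 FPKM in IkkB KO, 1226 FPKM in Shp2 KO and 573 FPKM in WT hepatocytes (-1.34). In Saa1 and Mt1 alike, Shp2 KO was above WT and both genotypes without IkkB were below it. Reads of Saa1, Saa2 and Orm3 can be shared with near-identical copies.

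Metabolic genes were scattered over both directions. Cd36, a fatty acid transporter, had 31.7 FPKM in Double KO, 5.80 FPKM in IkkB KO, 55.9 FPKM in Shp2 KO and 2.31 FPKM in WT hepatocytes (-1.84). Acot1, a PPARalpha target, had 20.5 FPKM in Double KO, 1.40 FPKM in IkkB KO, 13.4 FPKM in Shp2 KO and 3.49 FPKM in WT hepatocytes (1.48). In both the Double KO was nearer to Shp2 KO than to IkkB KO, and far above WT. G0s2, an inhibitor of lipolysis, had 190 FPKM in Double KO, 114 FPKM in IkkB KO, 113 FPKM in Shp2 KO and 211 FPKM in WT hepatocytes (1.63). Ppp1r3g (-1.995) and Ppp1r3c (1.69), regulatory subunits of a phosphatase of glycogen synthesis, had opposite signs. With a pseudocount of 5, Acot1 (0.88) and Ppp1r3g (-0.94) were inside the threshold. Of all 10725 genes, 1.47% were at 1 or more and 2.46% at -1 or less with a pseudocount of 1, the shares to set beside the following list counts. Past the threshold in either direction were 2 of 23 PPARalpha and fatty acid oxidation genes, 2 of 16 fatty acid synthesis genes, 1 of 24 cholesterol synthesis genes, 4 of 27 bile acid genes, 6 of 19 glucose metabolism genes, 5 of 21 Nrf2 and glutathione genes, 5 of 22 xenobiotic enzymes, 3 of 12 lipid uptake genes, 2 of 26 amino acid genes and 2 of 6 metallothionein and zinc genes. None of 25 cell cycle genes (median 0.30) or 13 heat shock genes (median -0.037) was past it, with 0 in each direction. The other lists gave 3 of 13 immediate early genes, 4 of 26 interferon-induced genes, 2 of 13 chemokines and their receptors and 4 of 15 fetal and tumour genes.

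In hepatocytes, genes of antigen presentation, matrix, stellate cells and macrophages were on the negative side as far as they passed the threshold. Of 17 MHC and antigen presentation genes, 6 were at -1 or less and 0 at 1 or more. H2-Eb1, a class II chain that presents peptides to CD4+ T cells, had 9.52 FPKM in Double KO, 52.5 FPKM in IkkB KO, 7.23 FPKM in Shp2 KO and 6.91 FPKM in WT hepatocytes (-2.40). H2-Aa (-2.14), H2-Ab1 (-2.07), Cd74 (-1.82), H2-DMa (-1.62) and H2-DMb1 (-1.59) likewise had their highest level in IkkB KO. By the authors' deposited table all 6 rose in IkkB KO against WT and were lower in the Double KO than in IkkB KO. With a pseudocount of 5, H2-DMa (-0.82) and H2-DMb1 (-0.78) were inside the threshold. The macrophage markers had their highest sum in Double KO (365 FPKM, against 352 FPKM in IkkB KO). The sums of dendritic cell and lymphocyte markers were highest in IkkB KO, at low levels. The dendritic cell markers summed to 3.02 FPKM in Double KO, 5.94 FPKM in IkkB KO, 2.78 FPKM in Shp2 KO and 2.26 FPKM in WT hepatocytes, and the lymphocyte markers to 1.55 FPKM in Double KO, 4.38 FPKM in IkkB KO, 2.001 FPKM in Shp2 KO and 1.27 FPKM in WT hepatocytes. Their part in the MHC levels was not tested.

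Of 17 stellate and fibroblast markers, 9 were at -1 or less and 0 at 1 or more, and of 16 macrophage markers the counts were 5 and 0. Collagens and matrix genes gave 8 of 18 at -1 or less. Dcn (decorin) had 41.6 FPKM in Double KO, 84.8 FPKM in IkkB KO, 38.9 FPKM in Shp2 KO and 20.6 FPKM in WT hepatocytes (-1.89). Marco, a scavenger receptor of Kupffer cells, had 7.43 FPKM in Double KO, 21.9 FPKM in IkkB KO, 14.5 FPKM in Shp2 KO and 1.08 FPKM in WT hepatocytes (-4.34). Both were above WT in all 3 knockouts and highest in IkkB KO. The 16 endothelial markers gave 0 in either direction (median -0.30), although their summed level was also above WT in IkkB KO and Double KO. In whole liver the matrix, stellate and macrophage lists had positive medians instead. Of 18 collagens and matrix genes, 8 were at 1 or more there and 0 at -1 or less (median 0.93). The liver counts were 5 and 1 of 16 stellate markers (median 0.53) and 2 and 0 of 16 macrophage markers (median 0.56).

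The summed level of the stellate markers was 150 FPKM in Double KO, 294 FPKM in IkkB KO, 137 FPKM in Shp2 KO and 90.1 FPKM in WT hepatocytes. The macrophage sum was 365 FPKM in Double KO, 352 FPKM in IkkB KO, 287 FPKM in Shp2 KO and 120 FPKM in WT hepatocytes, and the endothelial sum was 138 FPKM in Double KO, 156 FPKM in IkkB KO, 91.2 FPKM in Shp2 KO and 81.6 FPKM in WT hepatocytes. WT hepatocytes had the lowest sum of each. None of these markers was at 0 in all genotypes, and 8 hepatocyte markers summed to 17564 FPKM in Double KO, 17925 FPKM in IkkB KO, 14928 FPKM in Shp2 KO and 22100 FPKM in WT hepatocytes. Of the 77 genes that were higher in all 3 knockouts, 58 (75.3%) were at least 2 times higher in WT whole liver than in WT hepatocytes, against 113 of 262 negative genes (43.1%), 33 of 158 positive genes (20.9%) and 8.25% of all genes. Among the 29 genes lower in the Double KO alone, the share was 10.3%, and among the 34 genes lower in both singles with the Double KO near WT it was 5.88%. Some positive patterns with the Double KO above WT had larger shares. These were 4 of 4 genes with both singles lower, Glul and Slc1a2 among them, and 8 of 16 with only IkkB KO lower. The WT hepatocyte level enters both this liver to hepatocyte ratio and the patterns. These shares are therefore partly set by how the genes were sorted, and are not separate evidence. The part of the other cells in the interactions was not tested. The remaining marker lists were small: 0 of 3 bile duct, 0 of 2 neutrophil, 1 of 3 dendritic, 1 of 2 erythroid and 1 of 2 pancreatic acinar markers were past the threshold, and no lymphocyte or mesothelial marker passed the filter.

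The same interaction was then computed in whole liver, whose libraries did not choose the members. Whether liver and hepatocytes came from the same mice is not stated. Of 153 positive genes that passed the filter in liver, 32 were at 1 or more there (20.9%) and 6 at -1 or less (3.92%), against 1.45% and 1.51% of 10462 genes. Of 246 negative genes, 38 were at -1 or less (15.4%) and 14 at 1 or more (5.69%). The median liver interaction was 0.16 for the positive and -0.06 for the negative genes, so most members had no interaction of that size in liver. The liver interaction was above 0 in 58.8% of the positive genes, against 49.3% of all genes, and below 0 in 52.8% of the negative genes, against 50.7% of all genes, which is near the background.

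Cdkn1a was past the threshold in both, with 7.98 FPKM in Double KO, 1.09 FPKM in IkkB KO, 2.14 FPKM in Shp2 KO and 1.80 FPKM in WT livers (1.94). Rgs16 had 0.885 FPKM in Double KO, 161 FPKM in IkkB KO, 2.95 FPKM in Shp2 KO and 38.9 FPKM in WT livers (-3.08), and Thrsp had 198 FPKM in Double KO, 1394 FPKM in IkkB KO, 801 FPKM in Shp2 KO and 868 FPKM in WT livers (-2.69). Rgs16 and Thrsp had the same order of genotypes in hepatocytes, and Cdkn1a was highest in the Double KO and lowest in IkkB KO in both. Saa1 (3.33), Saa2 (2.94) and Cxcl1 (2.55) had larger interactions in liver, and Scara5 had 1.93. The 8 clock genes past the threshold in hepatocytes were all inside it in liver. Dbp had 82.3 FPKM in Double KO, 146 FPKM in IkkB KO, 110 FPKM in Shp2 KO and 115 FPKM in WT livers (-0.77).

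Past the threshold with the opposite sign in liver were 6 positive and 14 negative genes. Mt1 had 386 FPKM in Double KO, 133 FPKM in IkkB KO, 194 FPKM in Shp2 KO and 1675 FPKM in WT livers (4.64, against -1.34 in hepatocytes). Igf2, a fetal growth factor, had 12.1 FPKM in Double KO, 0.132 FPKM in IkkB KO, 0.131 FPKM in Shp2 KO and 0.188 FPKM in WT livers (3.60, against -1.30 in hepatocytes). Col3a1, a fibrillar collagen, had 35.4 FPKM in Double KO, 6.37 FPKM in IkkB KO, 12.2 FPKM in Shp2 KO and 9.10 FPKM in WT livers (1.91), whereas in hepatocytes it had 6.30 FPKM in Double KO, 6.16 FPKM in IkkB KO, 5.67 FPKM in Shp2 KO and 1.18 FPKM in WT (-1.58). Igf2 and Col3a1 were thus highest in the Double KO in whole liver, and in isolated hepatocytes Igf2 was highest in Shp2 KO and Col3a1 was alike in the 3 knockouts. Their hepatocyte levels were low, and with a pseudocount of 5 those interactions were -0.42 for Igf2 and -0.77 for Col3a1.

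**Figure D5:**
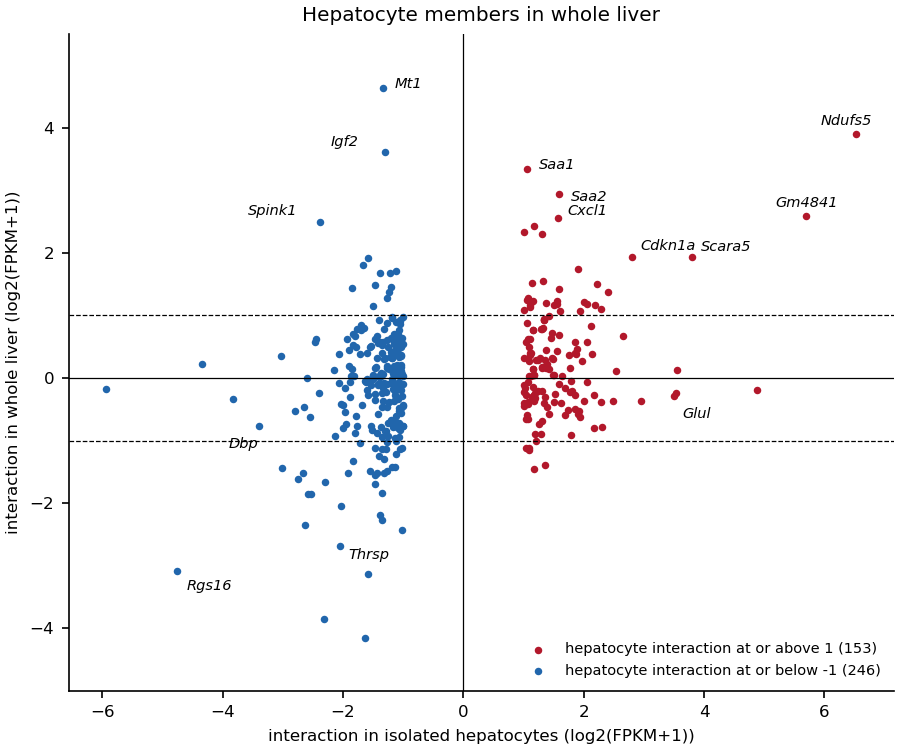
Interaction in whole liver (vertical axis) against the interaction in isolated hepatocytes (horizontal axis), both in log2(FPKM + 1), for the 153 positive (red) and 246 negative (blue) hepatocyte genes that passed the filter in liver; each point is a gene and the dashed lines mark 1 and -1. Rgs16 and Thrsp lie low in both, Cdkn1a and Scara5 high in both, Glul and Dbp inside the dashed lines in liver, and Mt1, Igf2 and Spink1 have opposite signs.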

How the data were processed

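PolyA RNA libraries (TruSeq v2, per the labels' protocols) of 12 hepatocyte samples, 3 per genotype, were compared, with the whole liver table as a second set. The submitters' processing notes name FastQC, Cuffdiff and the mouse build mm9. No aligner, annotation, strand setting or program version is given in the sources used here. The authors deposited 1 Cuffdiff value per gene and genotype over the replicates, with no unit in the header (other) and FPKM by the program's convention. Each p-value and q-value was deposited by the authors from Cuffdiff's test of a pair, 5 pairs in hepatocytes, beside a test statistic (a score) and a log2 ratio that were not used. No counts or totals per sample were given, so depth and its precision are unknown. Whether replicates are separate animals is stated only as biological replicates.

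The level of each genotype was taken from its row with WT. A pseudocount of 1 was added, genes under 1 in every genotype and 27 genes with status HIDATA were left out, and the interaction and its pattern (0.5 on log2) were computed without a test, in Python 3.11.15 with numpy 2.4.6 and pandas 2.3.3. Short RNA genes were set aside after the data were seen. The arithmetic was tested on simulated data. Genes were named by rule: the deleted genes, the 12 largest and smallest interactions from 5 FPKM, up to 6 members of each of 27 pathway and 11 cell type lists, the leaders of the common patterns, all clock genes and the neighbours of the threshold. Some further genes (Thrsp, Slc1a2, Lhpp, Scara5, Gm4841, Socs2, Cish, Onecut1, Glul's pericentral companions and the liver examples) and the pericentral, periportal and D-box searches were chosen after their values were seen. The members and lists were chosen with earlier results of these data known. Of the hepatocyte IDs, 24203 matched RefSeq by symbol. Results of some genes are not reported here.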

Additional observations from a re-analysis of the deposited data

How the results depend on the processing

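No named gene reversed its sign under another pseudocount (0.1 or 5) or after centring on the median of each difference. Including short RNA genes, the counts at 1 or more and at -1 or less were 230 and 371. They were 141 and 181 with a pseudocount of 5, 145 and 180 with a minimum of 1 in every genotype, 128 and 181 at a threshold of 1.5, and 150 and 242 among genes with an authors' q-value under 0.05 in any pair. The negative count was 658 with a pseudocount of 0.1 and 224 without genes at least 2 times higher in WT whole liver. The share of positive genes with the same sign in liver was 57.8%, and 52.6% at a liver minimum of 5. Of 151 named genes past the threshold, 44 were inside it with a pseudocount of 5 and 0 with 0.1, and 1 (Hsd3b7) after centring. The pattern counts at a limit of 1 in place of 0.5 stand beside the patterns. The median of the female-biased list was -2.37 and -0.89 with pseudocounts of 0.1 and 5, that of the collagens -1.39 and -0.30, and that of the stellate markers -0.48 with 5. The cause of these shifts was not tested. No paired analysis was possible because the tables hold 1 value per genotype, and leaving out replicates was not possible for the same reason. Low levels, unknown depth and the missing spread of the interaction limit every value.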

Other observations

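H19, an imprinted fetal RNA that lies next to Igf2, was on neither side of the threshold in hepatocytes. H19 had 14.1 FPKM in Double KO, 0.166 FPKM in IkkB KO, 24.5 FPKM in Shp2 KO and 0.149 FPKM in WT hepatocytes, an interaction of -0.77, and 411 FPKM in Double KO, 0.549 FPKM in IkkB KO, 1.15 FPKM in Shp2 KO and 0.440 FPKM in WT livers, an interaction of 7.47. It was high in both genotypes without Shp2 in hepatocytes and in the Double KO alone in whole liver. Slc2a4, the insulin-regulated glucose transporter, had an interaction of -2.04 in hepatocytes and -2.05 in liver at a pseudocount of 1. Its levels are low and the pseudocount sets the value, which in hepatocytes was -4.11 at 0.1 and -0.69 at 5, inside the threshold. Slc2a4 had 0.182 FPKM in Double KO, 0.970 FPKM in IkkB KO, 2.76 FPKM in Shp2 KO and 0.531 FPKM in WT hepatocytes. It had 0.150 FPKM in Double KO, 1.84 FPKM in IkkB KO, 3.42 FPKM in Shp2 KO and 1.64 FPKM in WT livers, lowest in the Double KO in both.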
